A study of Oryza nivara and Oryza rufipogon with 42 samples.

Results

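The pollen wall and anther cuticle genes described here are 10 genes named by locus number for their known roles, in a rule that uses no measured value but was written with earlier results of these data known. All 10 are among the 20134 genes of the digital gene expression (DGE) counts and the 37497 genes of the RNA-seq table. They were measured in greenhouse-grown plants of the wild rices Oryza nivara and O. rufipogon, with no treatment named. DGE, which counts a short tag cut from each transcript, was run on 6 flag leaves (taken at heading), 6 heading panicles and 6 flowering panicles of each species, 3 of each group collected in 2009 and 3 in 2010. A further 6 RNA-seq libraries cover 1 sample of each species and tissue. Levels of DGE are CPM, tag counts per 1e6 of the TMM-scaled library total, and the number in a library's title was taken as the plant.

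The outer wall of a rice pollen grain is made of sporopollenin, a polymer of modified fatty acids and phenolics. Its building blocks are made in the tapetum, the innermost cell layer of the anther, and are carried to the developing pollen, while related lipids form the cutin and wax of the anther surface. The tapetum works for a short time around and after meiosis and then breaks down, and mutants in most of these genes are male sterile.

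Of the 10 genes, 5 make lipid precursors. ACOS12 (LOC_Os04g24530) is an acyl-CoA synthetase and OsPKS1 (LOC_Os10g34360) a polyketide synthase. CYP704B2 (LOC_Os03g07250) and CYP703A3 (LOC_Os08g03682) are cytochrome P450 enzymes that hydroxylate fatty acids. DPW (LOC_Os03g07140) is a fatty acyl carrier protein reductase. WDA1 (LOC_Os10g33250) acts in the synthesis of anther surface wax. OsC6 (LOC_Os11g37280) is a lipid transfer protein, and ABCG15 (LOC_Os06g40550) and ABCG26 (LOC_Os10g35180) are membrane transporters of the ABCG family. RTS (LOC_Os01g70440) is a tapetum gene needed for male fertility.

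All libraries were whole organs, so fewer cells of a type and less RNA per cell cannot be told apart. Summed counts ran from 1725036 to 4173433 per library. The panicle label held in a list of 5 stamen identity genes. In both species all 5 were higher in heading panicle than in flag leaf, beside 26.3% (O. nivara) and 23.9% (O. rufipogon) of all genes. In heading panicles the list summed to 348 to 1380 CPM (O. nivara) and 750 to 1970 CPM (O. rufipogon). In flag leaves it summed to 8.88 to 47.7 and 11.3 to 37.3 CPM. A list of 9 photosynthesis genes stood at 40600 to 125000 CPM in flag leaves of both species, and within heading panicles it still varied from 596 to 10800 CPM.

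The heading panicle was the high point of the set. All 10 genes were higher there than in flag leaves in O. nivara, where 26.3% of all genes tested were higher, and all 10 were higher in O. rufipogon, where 23.9% were. ACOS12, CYP704B2 and ABCG15 passed the low-count filter only through heading panicles, so their calls are not independent of it. Over all 10 genes, these included, the median log2 difference was 7.36 (O. nivara) and 7.31 (O. rufipogon), beside 0.18 and 0.16 over all genes tested. Together the 10 genes took a median of 0.435% of a heading panicle's tags (O. nivara) or 1.09% (O. rufipogon). In flag leaves the median was 0.0015% and 0.00171%, and in flowering panicles it was 0.0212% and 0.0933%. A single heading panicle, of O. rufipogon plant 199, gave 3.22% of its counts to these 10 genes.

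**Figure D1:**
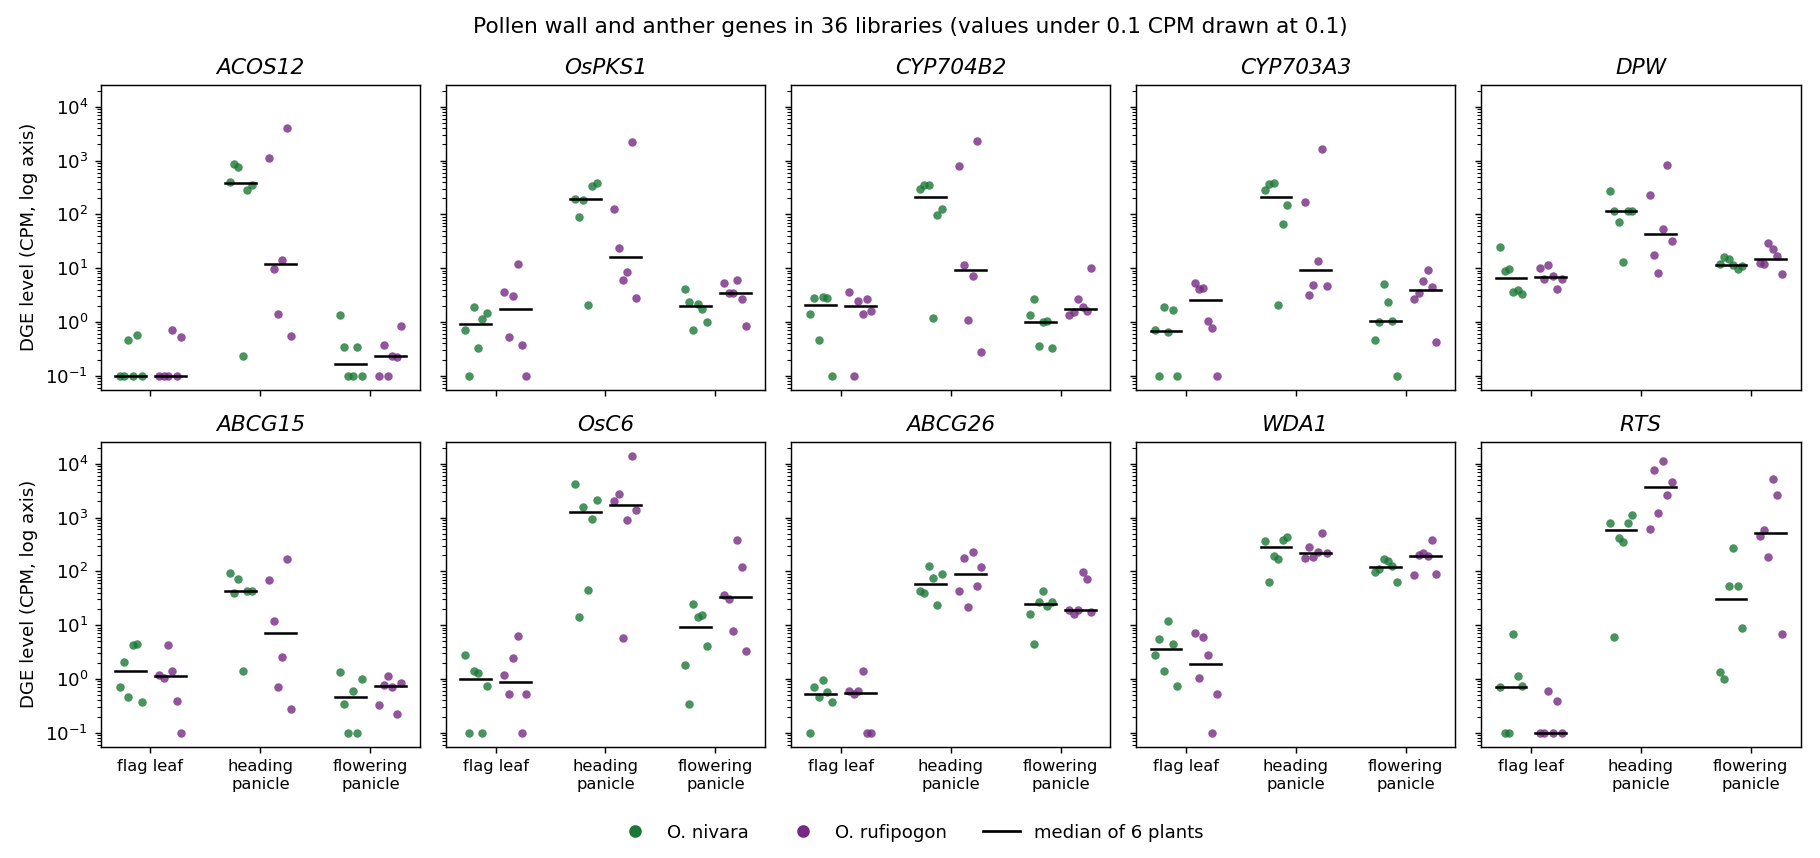
DGE levels of the 10 genes in CPM on a log axis, 1 point a library, with O. nivara in green and O. rufipogon in purple and a bar at the median of 6 plants. All 10 genes were low in flag leaves and higher in heading panicles, and WDA1, ABCG26 and RTS kept a visible level in most flowering panicles.

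ACOS12 activates fatty acids for the later steps. In O. nivara heading panicles its lowest, median and highest levels were 0.233, 380 and 883 CPM, and in O. rufipogon they were 0.558, 11.9 and 3960 CPM. In flag leaves the 6 O. nivara libraries held 2 counts and the 6 O. rufipogon libraries 3. The ratio of heading panicles to flag leaves therefore had 95% counting intervals of 709 to 21200 (O. nivara) and 1370 to 19400 (O. rufipogon). Flowering panicles reached at most 1.37 CPM and held 5 counts in each species. The ratio of flowering panicles to flag leaves had intervals of 0.274 to 17.6 (O. nivara) and 0.211 to 6.98 (O. rufipogon), so neither a difference nor its absence was detectable at this depth. Of the 12 flowering libraries, 5 had no ACOS12 count. A count of 0 allows up to 3 counts in a library, and floors and intervals cover counting error only.

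OsPKS1 acts on the products of acyl-CoA synthetases of the ACOS12 type. It stood at 2.1, 190 and 379 CPM (lowest, median, highest) in heading panicles of O. nivara, and at 2.79, 16 and 2220 CPM in those of O. rufipogon. Its log2 difference from flag leaves was 7.85 (SE 1.45, edgeR adjusted p = 4.98e-05) in O. nivara and 6.14 (SE 1.3, adjusted p = 0.000292) in O. rufipogon. Flowering panicles held 0.716 to 6.05 CPM over both species. The lowest heading panicle of each species fell inside that range, so the stages overlapped. One O. rufipogon flag leaf, of plant 95, held 11.8 CPM, above every flowering panicle.

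Both cytochrome P450 genes followed the same course. CYP704B2 stood at 1.17, 210 and 351 CPM in O. nivara heading panicles and at 0.279, 9.24 and 2280 CPM in those of O. rufipogon. CYP703A3 stood at 2.1, 214 and 382 CPM in O. nivara and at 3.13, 9.17 and 1660 CPM in O. rufipogon. In both genes the O. rufipogon median was far below the O. nivara median while the O. rufipogon maximum was above every O. nivara plant. In flowering panicles CYP704B2 was at most 10.1 CPM and CYP703A3 at most 9.3 CPM.

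DPW differed from the other precursor genes in its basal level. Every flag leaf held DPW, from 3.3 to 25.2 CPM, and every flowering panicle did, from 7.96 to 29.4 CPM. Heading panicles stood at 12.8, 115 and 270 CPM in O. nivara and 8.17, 42.7 and 838 CPM in O. rufipogon. Its log2 difference between heading panicle and flag leaf, 4.03 (SE 0.80, adjusted p = 0.000125), was the smallest of the 10 in O. nivara, and in O. rufipogon its value of 4.56 (SE 0.82) was also the smallest.

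Of the transport genes, OsC6 was by far the more strongly counted. In heading panicles it stood at 14.2, 1260 and 4230 CPM in O. nivara and at 5.68, 1690 and 14100 CPM in O. rufipogon. Flowering panicles held 0.338, 9.16 and 24.7 CPM in O. nivara and 3.35, 33.7 and 380 CPM in O. rufipogon. The heading and flowering ranges overlapped in both species, through plant 33 in O. nivara and plant 49 in O. rufipogon. The log2 difference from flag leaf to heading panicle was 10.51 (SE 1.75, adjusted p = 1.19e-05) and 10.73 (SE 1.73, adjusted p = 9.12e-06).

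The ABCG transporters differed from each other across stages. Heading panicles held ABCG15 at 1.4, 43.9 and 91.3 CPM in O. nivara, at 0.279, 7.12 and 168 CPM in O. rufipogon, and no flowering panicle held more than 1.37 CPM. ABCG26 stood at 23.9, 59 and 127 CPM and at 22, 87.3 and 233 CPM in heading panicles, and flowering panicles still held 4.39 to 97.2 CPM. No flag leaf exceeded 1.39 CPM of ABCG26, so all 24 panicles lay above all 12 leaves. For ABCG15 flag leaves reached 4.53 CPM, above every flowering panicle.

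WDA1 is the wax gene. Heading panicles stood at 64.5, 281 and 437 CPM in O. nivara and 175, 222 and 525 CPM in O. rufipogon. Flowering panicles stood at 63.7, 119 and 173 CPM and at 84.2, 196 and 385 CPM. Flag leaves held at most 11.9 CPM, so every panicle of either stage exceeded every leaf.

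RTS was high in O. rufipogon panicles. It stood at 6, 599 and 1110 CPM in O. nivara heading panicles and at 615, 3640 and 11100 CPM in those of O. rufipogon. In O. rufipogon flag leaves it had 2 counts against 112336 in heading panicles, a ratio with a counting interval of 9000 to 268000. Flowering panicles held 1.01, 30.8 and 271 CPM in O. nivara and 6.7, 516 and 5190 CPM in O. rufipogon.

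Comparing flowering with heading panicles asks how the genes change as spikelets open. In O. nivara 9 of the 10 genes were lower in flowering panicles, where 6.12% of all genes were lower, and the other was WDA1. In O. rufipogon 8 were lower, against 4.06% of all genes, and the others were WDA1 and RTS. Both counts come from the model without a plant term. Both include ACOS12, CYP704B2 and ABCG15, which passed the low-count filter only through heading panicles. Their calls are therefore not independent of that filter. The median log2 difference over the 10 genes was -6.58 in O. nivara and -5.73 in O. rufipogon, beside 0.01 over all genes in each. Mean flowering levels were 0.0762% and 0.0328% of mean heading levels for ACOS12, and 45% and 72.8% for WDA1.

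ACOS12 fell by 10.44 on the log2 scale in O. nivara (SE 1.89, adjusted p = 0.000584) and had -11.39 in O. rufipogon (SE 1.94, adjusted p = 0.000784). OsPKS1, CYP704B2, CYP703A3 and ABCG15 had log2 differences of -7.34 to -6.38 in O. nivara, and -7.48 to -5.92 in O. rufipogon. For DPW they were -3.32 and -3.41, and for OsC6 -7.18 and -5.54. For ABCG26 they were -1.60 (SE 0.53, adjusted p = 0.0429) and -1.64 (SE 0.53, adjusted p = 0.0496), values close to the threshold of 0.05. RTS fell by 3.58 in O. nivara (SE 1.08, adjusted p = 0.0258) and had a log2 difference of -2.10 in O. rufipogon (SE 1.02, adjusted p = 0.231). WDA1 had -1.11 (adjusted p = 0.233) and -0.43 (adjusted p = 0.762).

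With the plant number as a block the 9 calls in O. nivara became 0 and the 8 in O. rufipogon became 4. In O. nivara 2 plant numbers occur at both stages, and the blocked log2 differences of the 9 genes ran from -11.51 (ACOS12) to -1 (ABCG26) with adjusted p from 0.144 to 0.768. In O. rufipogon 5 plants gave both stages, and ACOS12, DPW, OsC6 and ABCG26 were the 4. The others there had -4.57 (OsPKS1, adjusted p = 0.0738), -4.55 (CYP704B2, 0.195), -3.94 (CYP703A3, 0.126) and -4.99 (ABCG15, 0.0559). Without the heading panicle of O. rufipogon plant 199 the count was 5. Within years it was 7 in 2009 and 0 in 2010 in O. nivara, and 0 in 2009 and 2 in 2010 in O. rufipogon, with 3 plants a group. Late pollen markers moved the other way: 2 of 3 MADS-box genes of a late pollen list were higher in flowering panicles of each species, where 6.81% (O. nivara) and 4.19% (O. rufipogon) of all genes were higher. They were LOC_Os11g43740 (log2 3.42 and 3.64) and LOC_Os08g38590 (4.29 and 4.60). The summed list lay between 1.4 and 54.5 CPM in heading and between 4.73 and 245 CPM in flowering panicles of O. nivara. In O. rufipogon it lay between 1.82 and 51.5 CPM and between 88 and 280 CPM, with no overlap. Photosynthesis genes were higher in flowering panicles for 8 of 9 (O. nivara) and 3 of 9 (O. rufipogon). The part of either list in the fall of the 10 genes was not tested.

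**Figure D2:**
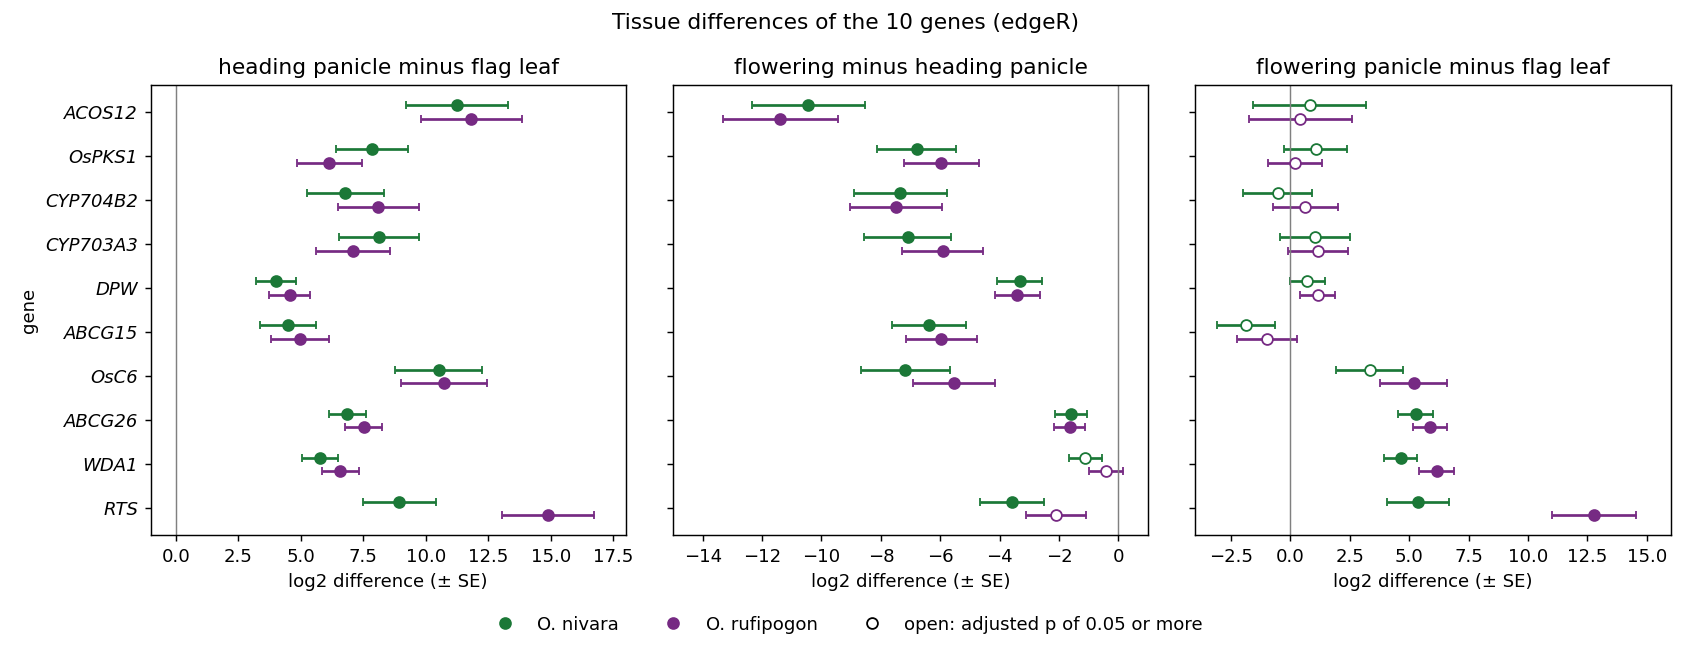
Log2 differences between tissues with their standard errors from edgeR, O. nivara in green and O. rufipogon in purple, filled where the adjusted p was under 0.05. In the middle panel ACOS12 lies near -10 to -11 and WDA1 near 0, and in the right panel WDA1, ABCG26 and RTS are filled in both species.

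Flowering panicles were also compared with flag leaves. The counts called were not far from the share over all genes, so they are not read as a trait of the set. In O. nivara 3 of 10 were higher, where 21.9% of all genes were, and in O. rufipogon 4 of 10, where 22.7% were. They were WDA1 (log2 4.65, SE 0.69, and 6.16, SE 0.74), ABCG26 (5.27, SE 0.72, and 5.88, SE 0.73) and RTS in both species, with OsC6 (5.19, SE 1.42, adjusted p = 0.00379) in O. rufipogon. In O. nivara OsC6 had 3.33 (SE 1.41, adjusted p = 0.0621), and with the plant number as a block it passed (log2 4.68, adjusted p = 0.0402). RTS in O. rufipogon had 37602 counts in flowering panicles against 2 in leaves, a ratio interval of 3390 to 101000. For OsPKS1, CYP703A3 and DPW the log2 differences lay between 0.19 and 1.17 and none was called. ACOS12, CYP704B2 and ABCG15 were low in both tissues and passed the count filter through heading panicles, so no reading of this difference is given for them.

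Heading panicles of the same species differed widely from plant to plant. The SD of log2 CPM over 6 plants had a median of 2.68 over the 10 genes in O. nivara and 3.26 in O. rufipogon, while the median over all genes was 0.87 and 0.77. Of the 10 genes, 6 were among the most variable 5% of all genes in O. nivara heading panicles and 7 in those of O. rufipogon. In flowering panicles the medians were 0.65 and 0.87 for the 10 genes, against 0.80 and 0.77 over all genes. There 1 (O. nivara) and 2 (O. rufipogon) were among the most variable 5%, and RTS had SDs of 2.92 and 3.34. ACOS12 and ABCG15 held 10 and 22 counts over the 12 flowering libraries, a level at which the prior count of 2 holds the SD down.

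The genes differed in how they ordered the 12 heading panicles. The 7 highest libraries of each gene were set against those of ACOS12, and this cut lies at a gap of ACOS12 in these same data. For ACOS12, OsPKS1, CYP704B2, CYP703A3, DPW and ABCG15 the same 7 libraries held the 7 highest values. These were O. nivara plants 26, 33, 39, 80 and 133 and O. rufipogon plants 43 and 199. ACOS12 was at least 282 CPM in those 7 and at most 14.2 CPM in the other 5, and CYP704B2 was at least 99.4 and at most 11.4 CPM. The gap was narrow for DPW, with 71 CPM in the seventh library and 52.8 CPM in the eighth. WDA1 shared 4 of its 7 highest libraries with ACOS12, OsC6 shared 5, and RTS and ABCG26 shared 3 each. Sets of 7 out of 12 libraries must overlap in part, so these shares say little. The cut was also no clear break there, with the seventh library 1.01 (RTS) to 1.46 (OsC6) times the eighth. In DPW the seventh was 1.34 times the eighth.

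**Figure D3:**
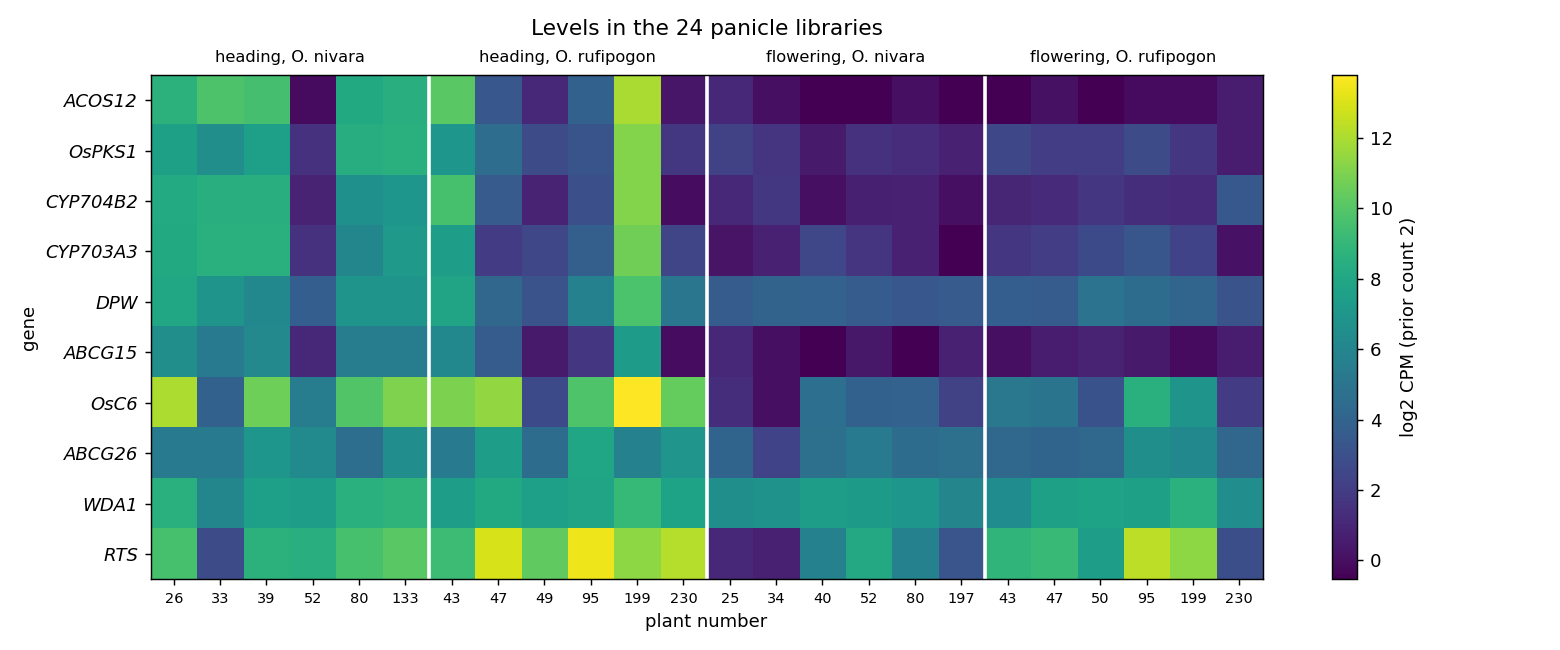
Log2 CPM of the 10 genes (rows) in the 24 panicle libraries (columns, by plant number), darker for low and brighter for high values. In heading panicles the upper 6 rows are dark in O. nivara plant 52 and in O. rufipogon plants 47, 49, 95 and 230, while the RTS row is bright in most of those.

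The 5 libraries with low precursor genes still held other members. O. nivara plant 52 had 0.233 CPM of ACOS12 with 353 CPM of RTS, 173 CPM of WDA1 and 75.5 CPM of ABCG26. O. rufipogon plant 95 had 14.2 CPM of ACOS12 with 11100 CPM of RTS, the highest in the study, and 233 CPM of ABCG26. RTS made up 88.3% of the tag counts of the 10 genes in plant 95, 84.2% in plant 49, 72.4% in plant 230 and 70.1% in plant 47. In O. rufipogon plant 199 it made up 9.31%, beside 49.6% for OsC6 and 13.9% for ACOS12.

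O. nivara plant 33 showed the reverse. It had 883 CPM of ACOS12, the highest of its group, with 6 CPM of RTS and 14.2 CPM of OsC6. WDA1 was also lowest there, at 64.5 CPM. ACOS12 made up 44.8% of the tag counts of the 10 genes in that library and RTS 0.304%. O. rufipogon plant 49 was low in ACOS12 (1.42 CPM), OsC6 (5.68 CPM) and DPW (8.17 CPM), while it held 183 CPM of WDA1 and 1240 CPM of RTS.

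**Figure D4:**
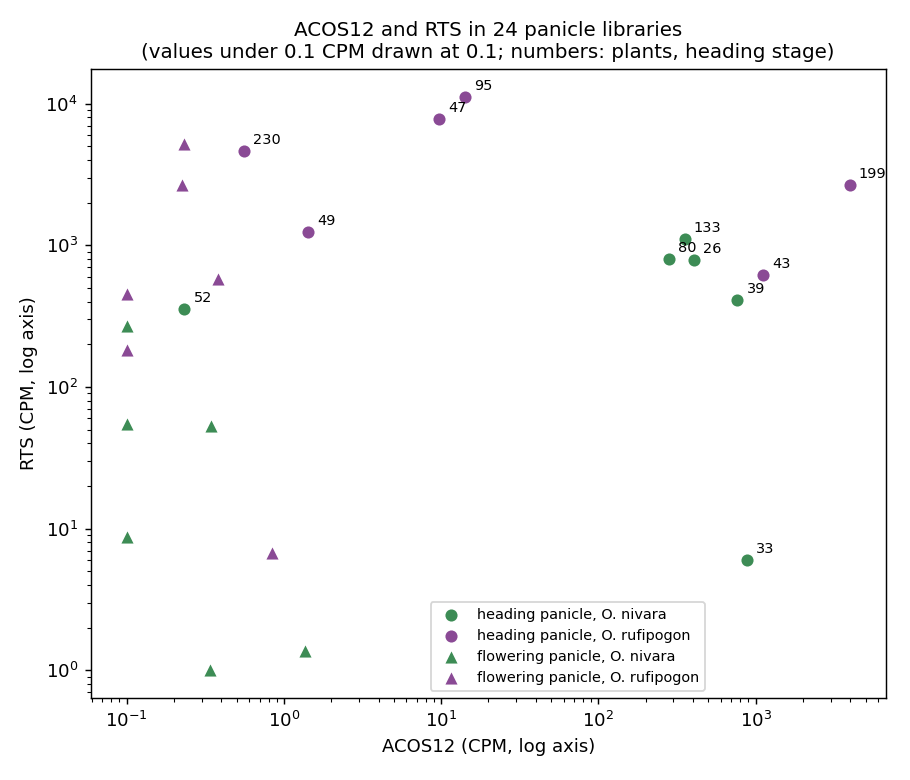
CPM of ACOS12 against CPM of RTS, both on log axes, in 24 panicle libraries; circles are heading and triangles flowering panicles, and numbers name the plants of the heading stage. Plant 33 lies at the lower right, 5 heading panicles lie at the left with RTS of 353 to 11100 CPM, and all flowering panicles lie at or below 1.37 CPM of ACOS12.

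Other markers also varied over these heading panicles. The summed late pollen list was 54.5 CPM in O. nivara plant 52 and at most 9.28 CPM in the other 5. In O. rufipogon it was 51.5, 22.5, 17.6 and 3.02 CPM in plants 49, 47, 230 and 95, and 41 and 1.82 CPM in plants 43 and 199. Of its 3 genes, 1 was at 0 in O. nivara plants 33 and 80 and in O. rufipogon plants 95 and 199. The photosynthesis sum was 4070 CPM in O. nivara plant 52. It was 596, 917, 936, 4420 and 10500 CPM in O. nivara plants 33, 26, 39, 80 and 133. In O. rufipogon it was 2610, 2740, 10800 and 10100 CPM in plants 49, 47, 230 and 95, and 1120 and 8270 CPM in plants 43 and 199. The part of these markers in the differences between plants was not tested.

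The species comparison asks whether the 2 wild rices differ in these genes within a tissue. edgeR called 0 of the 10 in heading panicles, where 0.161% of all genes were called, 0 of the 7 tested in flowering panicles, where 1.26% were, and 0 of the 1 tested in flag leaves (DPW), where 0.2% were. At an unadjusted p under 0.05 there were 1, 2 and 0, beside 2044 of 18634, 3962 of 18743 and 1900 of 15480 genes. DESeq2 called RTS in heading panicles, with 5 of the 10 given no adjusted p, RTS and OsC6 in flowering panicles, and 0 in flag leaves. ACOS12, CYP704B2 and ABCG15 were too low in flowering panicles to be tested.

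RTS had the largest species difference of the set in both panicle stages. In heading panicles the log2 difference, O. nivara minus O. rufipogon, was -3.01 (SE 0.92, edgeR adjusted p = 0.249), and 0.00984 was the adjusted p of DESeq2. The ranges, 6 to 1110 and 615 to 11100 CPM, overlapped. In flowering panicles it was -4.47 (SE 1.35, edgeR adjusted p = 0.0969, DESeq2 adjusted p = 0.00114), again with overlapping ranges. It passed the threshold in edgeR with all 36 libraries in the model (adjusted p = 0.0328) and without O. rufipogon plant 230 (adjusted p = 0.0351). Within years the flowering difference was -4.41 in 2009 and -4.55 in 2010, and the heading difference -2.98 and -3.08.

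OsC6 in flowering panicles had a log2 difference of -2.71 (SE 1.11, edgeR adjusted p = 0.19, DESeq2 adjusted p = 0.0427). It passed in edgeR without O. nivara plant 40 (adjusted p = 0.0461). In heading panicles its difference of -1.07 (SE 1.47, adjusted p = 0.837) turned to 0.07 without O. rufipogon plant 199. For the precursor enzymes the heading differences lay between -1.50 and -0.04 with standard errors of 1.12 to 2.19. The medians went the other way in each of these genes, as in ACOS12 (380 CPM in O. nivara, 11.9 in O. rufipogon) and DPW (115 and 42.7). The O. rufipogon maximum of ACOS12, 3960 CPM, was in plant 199. Heading panicles held WDA1 at 269 ± 147 CPM in O. nivara (SD, n = 6), and at 268 ± 131 CPM in O. rufipogon, a log2 difference of 0 with SE 0.43.

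The species were also compared in how far the genes moved between tissues. Of the 10 genes edgeR and DESeq2 each called 0 for a different step from flag leaf to heading panicle, where edgeR called 0.0149% of all genes, and 0 for the step from heading to flowering panicle, where it called 0% of all genes. At an unadjusted p under 0.05 there were 1 and 0 of the 10, beside 1319 and 935 of 20134 genes. The 1 was RTS, whose step into heading panicles was 5.95 smaller in O. nivara on the log2 scale (SE 2.07, adjusted p = 0.638), with 26 counts behind it in O. nivara leaves and 2 in those of O. rufipogon.

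Collection year was compared within each tissue. Between 2009 and 2010 edgeR called 0 of 10 genes in heading panicles, where 25% of all genes were called, and 0 of 7 in flowering panicles, where 17.7% were. Unadjusted there were 0 and 1 (ABCG26, edgeR adjusted p = 0.0605), beside 7066 of 18634 and 6035 of 18743 genes. DESeq2 called 0 in heading panicles, with 5 of the 10 given no adjusted p, and 2 in flowering panicles (RTS and ABCG26). The estimates were not all small: 2010 minus 2009 was 2.62 for RTS (SE 1.25, adjusted p = 0.166) and 1.37 for ABCG26 (SE 0.47) in flowering panicles, and 2.12 for OsPKS1 (SE 1.61, adjusted p = 0.365) in heading panicles. In flag leaves, where 25.5% of all genes were called, DPW was the 1 gene tested. It was lower in 2010 by a log2 difference of -1.38 (adjusted p = 0.0316), with 6.21 to 25.2 CPM in 2009 and 3.3 to 7.31 CPM in 2010. Leaving out any of 6 single libraries ended that call, the adjusted p then being at most 0.0801.

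RNA-seq gives levels per length, as RPKM, in 1 library for each species and tissue, so no test was possible. In O. nivara heading panicle (plant 39) OsC6 was at 2490 RPKM and RTS at 1900, the 6th and 13th highest of all genes. OsPKS1 and ACOS12 followed at 383 and 342 RPKM, CYP704B2 and CYP703A3 at 178 and 135, and DPW, WDA1, ABCG15 and ABCG26 at 66.9, 43.9, 40.9 and 39.7. In O. rufipogon heading panicle (plant 47) RTS was at 17800 RPKM, the highest of all genes, and OsC6 at 5480, rank 4. There WDA1 was at 115, ABCG26 at 49.5 and OsPKS1 at 33.4 RPKM, and the other 5 were between 0.776 and 8.57. No gene of the set exceeded 0.562 RPKM in a flag leaf.

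The RNA-seq pair of heading panicles thus repeated the difference between plants 39 and 47 seen in DGE. As log2 of RPKM plus 1, ACOS12 was 5.98 higher in plant 39, beside 6.17 in the DGE libraries of the same numbers, and CYP703A3 6.26 higher beside 6.54. RTS had -3.22 beside -4.25. More than 2-fold higher in O. nivara were 6 genes (the 5 precursor enzymes and ABCG15), against 6.98% of all genes, and more than 2-fold lower were 3 (OsC6, RTS and WDA1), against 6.57%. Between flowering panicles 1 gene (DPW) was more than 2-fold higher in O. nivara (7.68% of all genes) and 1 (RTS) lower (6.56%). Plants 39 and 47 are those in which DGE showed high and low precursor genes, and with 1 library a species plant and species cannot be told apart.

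**Figure D5:**
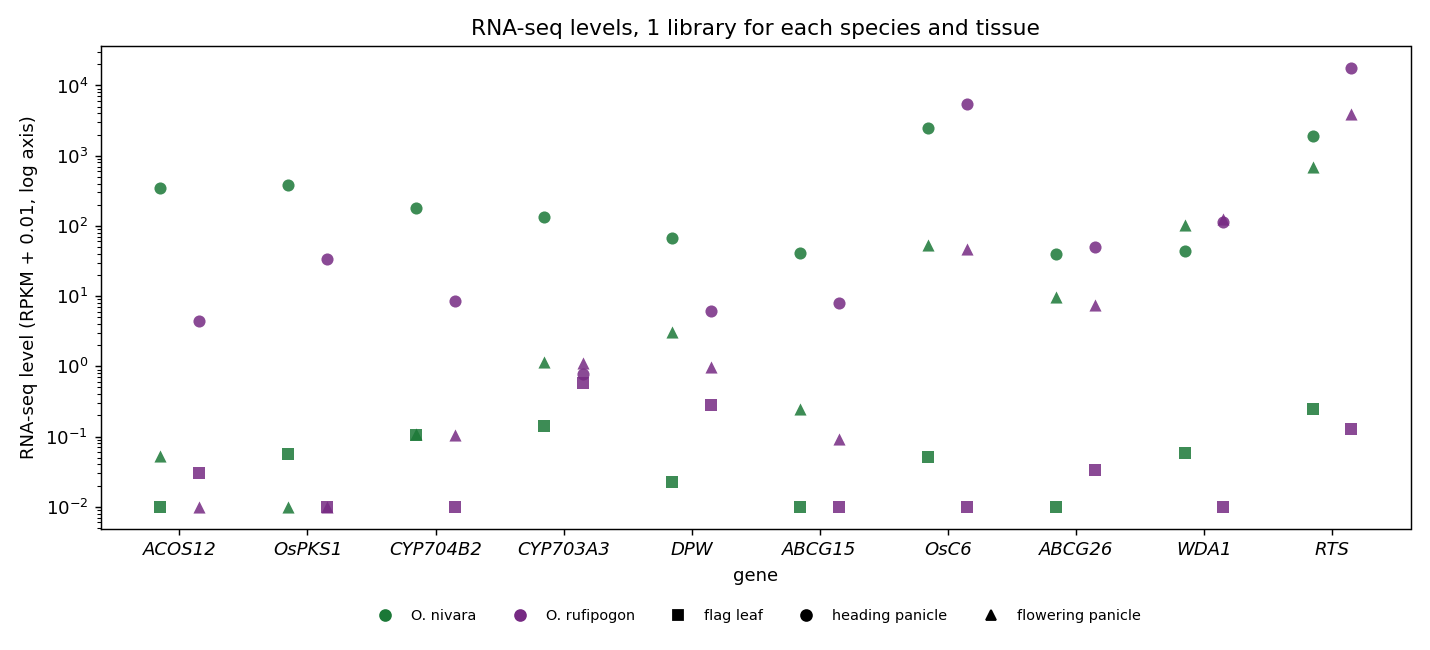
RPKM plus 0.01 on a log axis for the 10 genes in 6 RNA-seq libraries, squares for flag leaf, circles for heading and triangles for flowering panicle, O. nivara green and O. rufipogon purple. The precursor genes and ABCG15 are higher in the O. nivara heading panicle, and RTS reaches 17800 RPKM in that of O. rufipogon.

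Across stages in RNA-seq, all 10 genes were more than 2-fold higher in heading panicle than in flag leaf in O. nivara, where 26.9% of all genes were, and 9 in O. rufipogon, where 25.2% were, CYP703A3 being the other. From heading to flowering panicle 9 were more than 2-fold lower in O. nivara (9.07% of all genes), and 8 in O. rufipogon (7% of all genes). WDA1 was more than 2-fold higher in O. nivara, as were 7.94% of all genes, going from 43.9 to 104 RPKM. Its log2 difference was 1.23 there, beside -0.14 in the DGE libraries of the same numbers. The O. nivara heading library was of plant 39 and its flag leaf and flowering libraries of plant 40, so plant and tissue cannot be told apart. RTS kept 690 RPKM in the flowering panicle of O. nivara (plant 40) and 3890 in that of O. rufipogon (plant 47), and OsC6 kept 53 and 46.5 RPKM. Against flag leaf, 5 genes in O. nivara and 4 in O. rufipogon were more than 2-fold higher in flowering panicle, beside 21.7% and 24% of all genes.

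Other genes of the anther programme came from lists drawn from general knowledge of rice, whose loci the files do not annotate. Of 8 tapetum regulators present, 6 were higher in heading panicle than in flag leaf in O. nivara (26.3% of all genes), and 5 in O. rufipogon (23.9%). From heading to flowering, 5 of 8 were lower in O. nivara (6.12% of all genes). In O. rufipogon edgeR called 0, with adjusted p from 0.14 to 0.504. At an unadjusted p under 0.05 there were 5, a rule that 4193 of 20134 genes passed. The edgeR test of a species difference in this step called none of all genes. LOC_Os01g59660, the highest of the list in panicles, had log2 differences of -1.09 (edgeR adjusted p = 0.0872) and -0.56 (adjusted p = 0.504) and was not called. LOC_Os02g02820 stood at 37.9 ± 19.4 CPM in heading panicles of O. nivara (SD, n = 6) and 8.64 ± 10.9 in flowering panicles (log2 -2.89, adjusted p = 0.0323). In O. rufipogon it stood at 172 ± 244 and 68.4 ± 76 CPM (log2 -1.78, adjusted p = 0.214). LOC_Os04g51070 had log2 differences of -4.24 (adjusted p = 0.0152) and -2.45 (adjusted p = 0.14), and LOC_Os01g18870 had -4.48 (adjusted p = 0.00213) and -1.80 (adjusted p = 0.204).

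Of 12 further pollen wall genes present, 10 were higher in heading panicle than in flag leaf in O. nivara (26.3% of all genes), and 8 in O. rufipogon (23.9%). In flowering panicles 9 and 5 were lower than at heading, beside 6.12% and 4.06% of all genes. Heading panicles held LOC_Os03g08790 at 162 ± 136 CPM in O. nivara (SD, n = 6), at 159 ± 322 CPM in O. rufipogon, and flowering panicles at 5.83 ± 9.86 and 1.56 ± 0.983 CPM. LOC_Os09g32020 had log2 differences of -3.12 (adjusted p = 0.00673) and -2.37 (adjusted p = 0.0445). LOC_Os03g61050 had -0.23 and -0.04 and was not called. The median log2 difference of the list from heading to flowering panicle was -3.62 in O. nivara, -2.23 in O. rufipogon, and -6.58 and -5.73 for the 10 genes.

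Of 4 anther sugar genes, 1 was lower in flowering than in heading panicles in each species. Over all genes 6.12% (O. nivara) and 4.06% (O. rufipogon) were lower. The 4 meiosis genes present had adjusted p from 0.071 to 0.995 in O. nivara, from 0.436 to 0.941 in O. rufipogon, and the 4 housekeeping genes from 0.386 to 0.963 and from 0.179 to 0.963. Of 5 endosperm genes 1 rose in each species, where 6.81% (O. nivara) and 4.19% (O. rufipogon) of all genes did.

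The genes most like the set were found by Pearson's r over 24 panicle libraries. It set a gene's log2 CPM against the mean standardised log2 CPM of the 10 genes. These libraries differ in depth and span both stages, and the part of either in r was not tested. LOC_Os08g43290 had r = 0.948 and LOC_Os03g15340 r = 0.937, and the 50th gene had 0.864. LOC_Os08g43290 stood at 493 ± 412 CPM in heading panicles of O. nivara (SD, n = 6), and at 2130 ± 4300 CPM in those of O. rufipogon, with at most 2.56 CPM in flowering panicles. LOC_Os03g08790 of the pollen wall list, with r = 0.89, was the 1 listed gene among the 50.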

How the data were processed

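RNA of flag leaves and panicles was read by DGE (oligo(dT) capture, NlaIII and MmeI tags) and by paired-end RNA-seq, per the labels' protocols. The authors deposited raw tag counts per gene for 36 libraries and RPKM per gene for 6, with BWA and edgeR 3.6.8 named in the submitters' processing notes. The genome build was not given in the sources used here. A deposited table scaled to library totals was not used. Tags copied by PCR are not separate molecules.

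Counts were tested with edgeR 4.0.16 in R 4.3.3 (TMM, filterByExpr, quasi-likelihood F test, Benjamini-Hochberg over all genes tested, adjusted p under 0.05). Tissue differences and the species by tissue test used 1 model of 36 libraries (6 groups, and a year effect within each tissue). Species and year tests used the 12 libraries of a tissue with both terms. Tissues partly come from the same plants. Log2 CPM used a prior count of 2, and RPKM ratios 1 RPKM added to each value. DESeq2 1.42.0 was an alternative. The test was run on simulated counts first. Same-numbered libraries of 2 tissues deviated together, with r from 0.02 to 0.477 over 26 pairs, and 23 above 0.1. The number was taken to pair samples where every pair of a comparison was above 0.1. That held for each O. nivara step and for the O. rufipogon step from heading to flowering panicle. The main test still had no plant term, and the block on plant number was run as an alternative. Symbols of the 10 genes came with their locus numbers, and no file links locus to symbol. The members and gene lists were chosen with earlier results of these data known. Named genes are all 10, up to 4 per list with the highest mean panicle CPM, and the 2 most alike.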

Additional observations from a re-analysis of the deposited data

Results flagged for a closer look

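In 60 groups of 6 libraries, 1 for each gene and group, 9 had a highest or lowest library far from the other 5. About 1 in 20 would be expected by chance in unrelated groups. The 10 genes were read in the same libraries, so the 9 cannot be weighed against that share. The heading panicle of O. nivara plant 52 was the lowest of its group in 5 genes. It held 0.233 CPM of ACOS12 (next library 282), 2.1 of OsPKS1 (next 90.7), 1.17 of CYP704B2 (next 99.4), 2.1 of CYP703A3 (next 66.1) and 1.4 of ABCG15 (next 39.4). The heading panicle of O. nivara plant 33 held 6 CPM of RTS, where the next library held 353. The heading panicle of O. rufipogon plant 49 held 5.68 CPM of OsC6, where the next held 909. In flowering panicles, O. nivara plant 25 was highest in ACOS12 with 1.37 CPM from 3 counts (next 0.345 from 1 count). O. rufipogon plant 230 was highest in CYP704B2 with 10.1 CPM (next 2.67).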

How the results depend on the processing

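For the fall from heading to flowering panicle, 9 of the 10 genes were called in O. nivara. With a replicate block on plant number the count was 0 and with plants of 2010 alone 0. Leaving out single libraries gave 7 to 9. In O. rufipogon the count of 8 became 4 with the replicate block, 5 with the 12 libraries of the step alone, 0 with plants of 2009, 2 with plants of 2010, and 5 to 8 without single libraries. The cause of these changes was not tested, and the fits within a year also used fewer libraries. Over all genes the O. nivara step had 2604 calls, 46 with the block, 1705 without a year term, 1324 in 2009 and 42 in 2010; the O. rufipogon step had 1661, 3 in 2009, 1079 without a year term and 2524 by DESeq2, and leaving out single libraries gave 968 to 1805.

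In the O. nivara step 2 plant numbers occur in both stages. For the rise from flag leaf to heading panicle, all 10 genes were called in each species, also without any single library. There the block gave 9 in O. rufipogon (ABCG15, adjusted p = 0.0531) and 10 in O. nivara, and plants of 2010 gave 8 in O. nivara. Of flowering against leaf, the block gave 4 in each species. Leaving out O. nivara plant 52 and O. rufipogon plant 199 together, chosen after seeing the data, gave 9 and 7 in the fall to flowering.

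Species counts of 0 became 1 (heading) and 2 (flowering) with DESeq2, and 1 in flowering with all 36 libraries or, at most, without single libraries (0 to 1). All genes called in flowering panicles numbered 237, 1987 by DESeq2, 451 with all 36 libraries, 44 without year, 13 in 2009, 9 in 2010 and 33 to 968 without single libraries. In heading panicles they numbered 30, 512 by DESeq2, 92 with all 36, 13 without year, 11 in 2010, 223 without plants 52 and 199, and 16 to 59; in flag leaves 31, 406 by DESeq2, 259 with all 36, 12 without year, 12 in 2009, 0 in 2010, and 10 to 40. The OsC6 heading difference of -1.07 turned to 0.31 in plants of 2009, 0.32 without plants 52 and 199 and 0.07 without plant 199, with single libraries left out giving -1.78 to 0.07. Year calls were 0 to 1 in flag leaves, and 2 by DESeq2 and 0 to 2 without single libraries in flowering panicles. The species by tissue calls over all genes, 3 and 0, were 60 and 9 by DESeq2, and 0 of the 10 genes in every setting. In RNA-seq, flag leaf genes lower in O. nivara numbered 0, and 2 with a pseudocount of 0.1. At the depth of these libraries, genes at 0 to 3 counts in leaves allow intervals but no fold.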
